A study of Mus musculus with 6 samples.

Results

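The 40 genes described here encode enzymes of the lysosome, proteins of its membrane, the receptors that deliver enzymes to it and the transcription factors TFEB and TFE3. They were taken by gene symbol from a fixed list of lysosomal glycosidases, sulfatases, lipid-degrading enzymes, peptidases, membrane proteins, sorting receptors and regulators; cathepsins and proton pump subunits were left out of that list. All 40 were among the 16095 genes of the table, and all 40 reached the mean of at least 10 normalized counts that was required for testing, as did 14822 genes in all. RNA came from kidney epithelial cells of mice that carried a tamoxifen-inducible Cre recombinase under the Ksp-cadherin promoter, which is active in tubule epithelium, and a fluorescent reporter (KFP). The control group (3 libraries) was Trf1+/+ KFP+/t Cre+/t, and the Terf1_flox group (3 libraries) was Trf1lox/lox KFP+/t Cre+/t; Trf1 is the protein name of the telomere-binding factor encoded by Terf1. Both groups received tamoxifen by intraperitoneal injection, 3 times a week for 8 weeks, starting at 6 to 8 weeks of age in males and females. The labels do not give the sex of a library or whether it came from 1 mouse, so the spread between libraries may be partly technical. Cells were sorted by an EpCAM antibody and the reporter, and polyadenylated RNA was sequenced from low cell input.

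Lysosomes degrade sugars, lipids, proteins and glycosaminoglycans with acid hydrolases. Most of these enzymes receive mannose 6-phosphate tags in the Golgi apparatus and are carried to the lysosome by the receptors encoded by M6pr and Igf2r. TFEB and TFE3 are transcription factors held in the cytoplasm when nutrients are abundant; in the nucleus they bind an E-box-like element (the CLEAR element) near the starts of many lysosomal genes. In the kidney tubule, lysosomes process endocytosed protein and the cargo of autophagy.

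Libraries held 13582140 to 17680986 reads over the deposited genes. Terf1 itself held 530, 486 and 664 normalized counts in the control libraries and 62.0, 24.6 and 25.3 in the Terf1_flox libraries, so the groups did not overlap (log2 fold change −3.99 ± 0.61, limma adjusted p = 0.0814; exact two-sided permutation p = 0.1, the smallest that 3 against 3 libraries can give). Cdh16, the gene of Ksp-cadherin, held 4540 to 7152 and 4063 to 4767 normalized counts, and the sorting marker Epcam held 4416 to 5087 and 1434 to 2977, without overlap. The 4 thick ascending limb markers summed to 147691 to 181532 normalized counts in controls and 125430 to 129240 in Terf1_flox libraries, without overlap, but did not move together. Umod held 95801 to 138096 in controls and 60497 to 66079 in Terf1_flox libraries, Slc12a1 was higher in every Terf1_flox library (33842 to 41249 and 46946 to 54370), and Cldn16 and Cldn10 overlapped. The 3 distal convoluted tubule markers summed to 56483 to 117919 and 61904 to 100101. The 5 proximal tubule markers in the table summed to 237 to 874 normalized counts in controls and 446 to 1714 in Terf1_flox libraries. Of 12 macrophage and monocyte markers sought, 6 were in the table. These summed to 107 to 189 in controls and 71.8 to 199 in Terf1_flox libraries, and Cd68, which encodes a lysosomal membrane protein of macrophages, held 0 to 48.9 and 2.02 to 4.11. Intercalated cell markers, which mark a cell type rich in proton pumps, summed to 6523 to 17445 in controls and 5387 to 10149 in Terf1_flox libraries, with Foxi1 at 0 in Terf1_flox replicates 2 and 3. The ranges of the proximal tubule, distal convoluted tubule, macrophage and intercalated cell markers overlapped between the groups. The 3 principal cell markers in the table summed to 451 to 1474 in controls and 94.4 to 818 in Terf1_flox libraries. The 3 erythroid markers summed to 174 to 735 and 150 to 504. Both sums overlapped. Among the principal cell markers, Scnn1g was lower in every Terf1_flox library (76.6 to 229 and 0 to 55.7), while Aqp2 and Aqp3 overlapped. Of the markers of other cell types, 0 of 4 endothelial, 0 of 2 podocyte and 1 of 5 fibroblast genes were among the rows used here, the last (Col3a1) at 15.2 normalized counts or less. The part of the cell type mixture and of Epcam in the results below was not tested. In sorted cells measured in bulk, fewer cells of a type and less RNA per cell cannot be told apart.

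Most of the lysosomal genes had a fitted value below 0 in Terf1_flox against control libraries, but the groups of most of them overlapped and none passed the adjusted threshold in limma. Of the 40 genes, 32 had a log2 fold change below 0 (80.0%, against 52.8% of all tested genes), and their median log2 fold change was −0.81, against −0.08 over all tested genes. With equal library totals 34 were below 0, and with equal upper quartiles or quantile normalization 29 were; Aga, Idua, Gla, Asah1, Scarb2 and Igf2r, all close to 0, changed sign under at least 1 of these scalings. The lowest limma values were those of Sgsh (−3.003 ± 1.68), Tfe3 (−2.83 ± 1.88), Gusb (−2.53 ± 0.68) and Glmp (−2.46 ± 0.31), and the highest were those of Arsb (1.45) and Ids (1.34). Sgsh and Tfe3 were low genes whose place in this order depended on the method: in DESeq2 they were at −1.72 and −1.87, above Gusb (−2.64), Glmp (−2.46) and Glb1 (−2.05). DESeq2 gave 2 genes the opposite sign, Galns (−0.61, against 1.11 in limma) and Gla (0.64, against −0.05), so that 32 were below 0 there too. No lysosomal gene passed over all genes in limma or edgeR at an adjusted p below 0.05, as was true of every tested gene (0.0%). At an unadjusted p below 0.05, limma gave 12 lower and 1 higher, which is 30.0% and 2.5% of the genes, against 8.43% and 5.7% of all tested genes; edgeR gave 10 lower and 1 higher, against 7.33% and 6.11%. DESeq2 on the recovered reads called 8 lower and 1 higher at an adjusted p below 0.05, against 3.0% and 2.21% of all tested genes. For 12 genes (30.0%, against 10.8% of all tested genes) every Terf1_flox library lay below every control library. For 1 gene (2.5%, against 10.3%) every Terf1_flox library lay above. The members were chosen with earlier results of these data known, so these counts are a description.

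**Figure D1:**
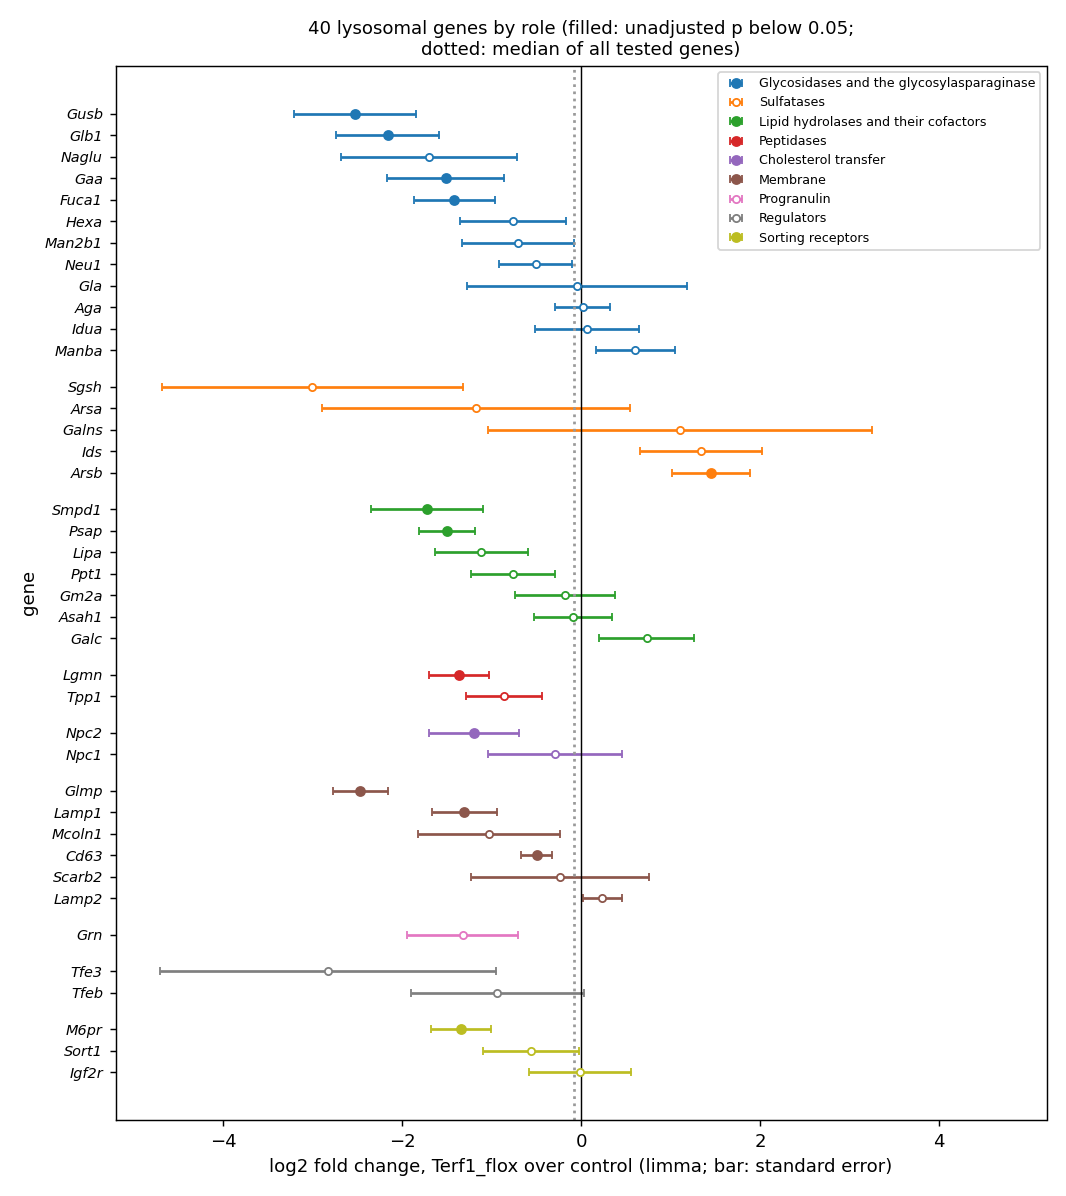
Log2 fold change (Terf1_flox over control, horizontal axis, limma) of each of the 40 genes, grouped by role; bars are standard errors, filled points have an unadjusted p below 0.05 and the dotted line is the median of all tested genes. Of the 40 points, 32 lie below 0, with Arsb at 1.45 the highest and Sgsh at −3.003, with a wide bar, the lowest.

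As a share of all reads the 40 genes together took 0.428%, 0.391% and 0.476% in the control libraries and 0.231%, 0.259% and 0.268% in the Terf1_flox libraries. The highest Terf1_flox library was below the lowest control library. Cd63 supplied much of this sum, and without it the summed normalized counts were 36736, 30924 and 40435 in controls and 21124, 22306 and 24229 in Terf1_flox libraries, again without overlap. Terf1_flox replicate 1 held the lowest value of 13 genes and replicates 2 and 3 of 8 each, while the control libraries held the lowest value of 2, 5 and 4 genes. Tfe3, at 0 in both Terf1_flox replicates 1 and 2, was counted for replicate 1 only. Low values were thus spread over the 3 Terf1_flox libraries, with replicate 1 lowest most often.

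**Figure D2:**
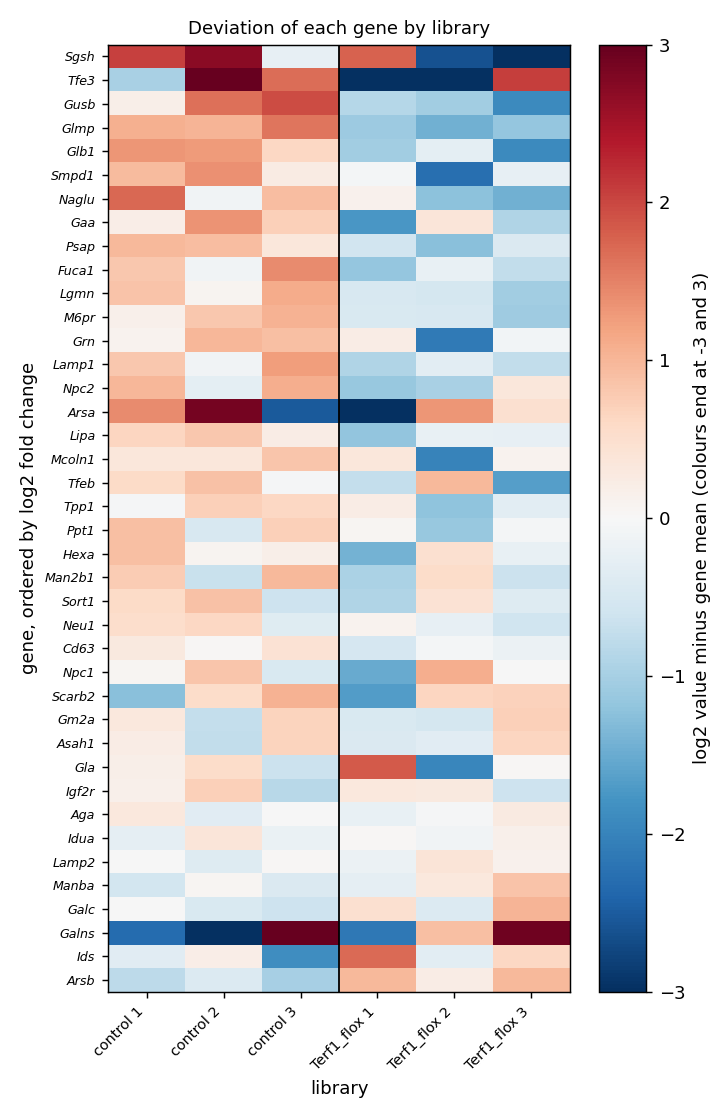
Deviation of the log2 value from the gene's mean over the 6 libraries (colour, ending at −3 and 3) for the 40 genes, ordered by log2 fold change from lowest (top) to highest (bottom), with the libraries as columns. The upper rows are mostly above their mean in the 3 control libraries and below it in the 3 Terf1_flox libraries, and rows such as Arsa, Galns and Tfe3 differ widely within a group.

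The promoter windows of these genes were searched for the E-box core CACGTG, the letters at the centre of the CLEAR element. RefSeq windows (build GRCm38.p6, from 250 bases before to 50 after each annotated start) were matched by symbol for 34 of the 40 genes. The letters, which read the same on both strands, occurred in a window of 10 of these 34 genes (29.4%), against 8.09% of all 27025 genes of the promoter table and 11.6% of the 10370 tested genes in it. In all 10 the core was part of the longer TCACGTG or its reverse complement CACGTGA, which contains CACGTG and was held by 7.01% of the tested genes. The stretches shown are those of genes whose values are given below, 5′ to 3′ in the direction of transcription and ending before the start, with the core in capitals; Glmp is shown because it had the smallest p of the 40 and its window holds no core.
Lamp1 (chr8:13159088-13159160, plus strand): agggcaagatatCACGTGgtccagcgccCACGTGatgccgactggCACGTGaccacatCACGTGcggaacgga
Mcoln1 (chr8:3500436-3500491, plus strand): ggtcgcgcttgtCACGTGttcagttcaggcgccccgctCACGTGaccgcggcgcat
Glb1 (chr9:114401018-114401047, plus strand): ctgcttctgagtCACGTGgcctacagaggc
Gaa (chr11:119267811-119267840, plus strand): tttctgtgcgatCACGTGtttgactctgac
Lgmn (chr12:102439124-102439153, minus strand): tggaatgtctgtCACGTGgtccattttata
Igf2r (chr17:12769707-12769766, minus strand): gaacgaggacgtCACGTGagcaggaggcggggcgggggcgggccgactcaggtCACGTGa
Glmp (chr3:88324963-88325022, plus strand): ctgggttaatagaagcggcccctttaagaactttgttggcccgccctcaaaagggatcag
Lamp1 carried 4 cores, beginning 61, 45, 28 and 15 bases before the start, and Mcoln1 and Igf2r carried 2 each. The other genes with the core were Gla, Naglu, Sgsh and Arsa. In limma with the deposited scaling, all 10 genes with the core had a log2 fold change below 0. They ran from −3.003 for Sgsh to −0.01 for Igf2r, with a median of −1.33. Igf2r and Gla, close to 0, were above 0 with equal upper quartiles and quantile normalization, and Gla was at 0.64 in DESeq2. Of the 24 genes without the core, 18 (75.0%) were below 0, with a median of −0.76. Over all tested genes of the promoter table, 56.7% of the 1200 with the core and 55.0% of the 9170 without were below 0. Their medians were −0.18 and −0.12. A match of letters is not a binding site, and the genes were not tested against each other by promoter.

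**Figure D3:**
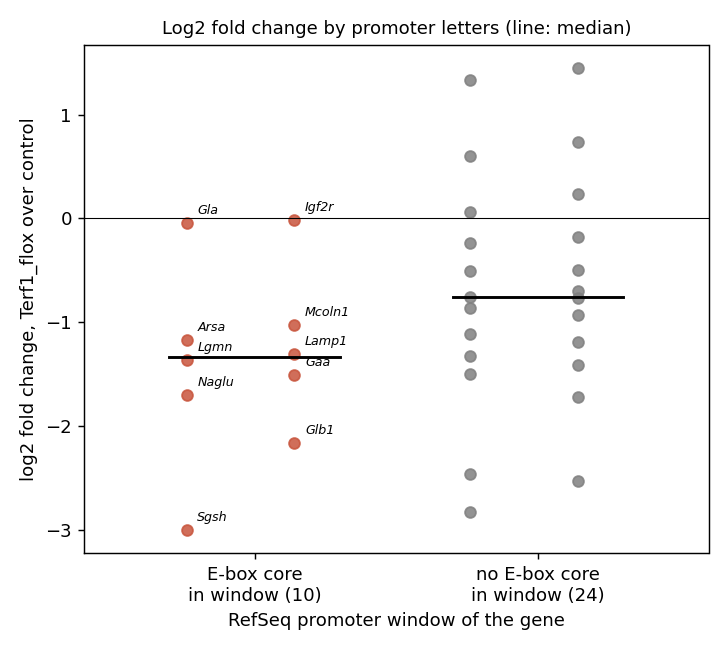
Log2 fold change (Terf1_flox over control, vertical axis) of the 34 lysosomal genes with a RefSeq promoter window, split by whether the window holds the E-box core; each point is a gene and the black line is the median. The 10 genes with the core have a median of −1.33 and the 24 without it have a median of −0.76, and both sets span a wide range.

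Among the glycosidases, which remove sugars from glycoproteins, glycolipids and glycosaminoglycans, 9 of 12 had a log2 fold change below 0 and 4 had an unadjusted limma p below 0.05, all lower. Glb1, the acid β-galactosidase, held 513, 496 and 314 normalized counts in controls and 97.9, 165 and 53.6 in Terf1_flox libraries. The highest Terf1_flox library was thus well below the lowest control library (log2 fold change −2.16 ± 0.58, limma adjusted p = 0.178; DESeq2 adjusted p = 0.023). Gusb, the β-glucuronidase, held 158, 439 and 547 in controls and 77.2, 67.7 and 36.4 in Terf1_flox libraries. Its control libraries spread more than 3-fold, and control replicate 1 came closest to the Terf1_flox group (−2.53 ± 0.68, limma adjusted p = 0.185; DESeq2 adjusted p = 0.00616). Fuca1, the α-fucosidase, held 1367, 732 and 2106 in controls and 350.3, 674 and 468 in Terf1_flox libraries. The groups were separated only by the gap between control replicate 2 and Terf1_flox replicate 2 (−1.42 ± 0.46, limma adjusted p = 0.232; DESeq2 adjusted p = 0.0266). Gaa, the acid α-glucosidase that degrades glycogen, held 252, 565 and 362 in controls and 65.3, 284 and 117 in Terf1_flox libraries, and the groups overlapped (−1.51 ± 0.65, limma adjusted p = 0.344; DESeq2 adjusted p = 0.301).

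The other glycosidases differed less or varied more. Naglu, an α-N-acetylglucosaminidase, had a log2 fold change of −1.70 ± 0.98, and those of Hexa (the α subunit of β-hexosaminidase), Man2b1 (an α-mannosidase) and Neu1 (a sialidase) lay between −0.76 and −0.51. Aga, the glycosylasparaginase that cleaves sugars from asparagine, was at 0.02 ± 0.31 (95% interval −0.68 to 0.71), with 862 to 1350 normalized counts in controls and 932 to 1322 in Terf1_flox libraries. Idua, the α-L-iduronidase, was at 0.07 ± 0.58 (−1.26 to 1.39) and Manba, the β-mannosidase, at 0.61 ± 0.44 (−0.40 to 1.62). Gla, an α-galactosidase, held 5.13 to 83.8 normalized counts in the Terf1_flox libraries, a range that took in all control libraries (−0.05 ± 1.23; DESeq2 0.64).

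The sulfatases, which remove sulfate from glycosaminoglycans and sulfolipids, did not share a direction: in limma 2 of 5 were below 0 and 3 above. Galns, which acts on keratan sulfate, was the third of these at 1.11 ± 2.14, but its mean was 44.8 normalized counts in controls and 28.8 in Terf1_flox libraries and DESeq2 put it at −0.61, so that by means 3 were lower and 2 higher. Arsb, the arylsulfatase that acts on dermatan and chondroitin sulfate, was the only one of the 40 genes to be higher at an unadjusted limma p below 0.05. It held 189, 246 and 164 normalized counts in controls and 646, 379.7 and 645 in Terf1_flox libraries, all above the control range (log2 fold change 1.45 ± 0.44, limma adjusted p = 0.207; DESeq2 adjusted p = 0.0399). Ids, the iduronate sulfatase, held 285, 415 and 99.5 in controls and 1178, 292 and 557 in Terf1_flox libraries, and the groups overlapped (1.34 ± 0.68). Galns, Arsa and Sgsh varied widely between libraries of the same group. Sgsh, the sulfamidase, was read 58, 84 and 12 times in controls and 38, 1 and 0 times in Terf1_flox libraries, and Galns was read 1, 0 and 169 times and 1, 16 and 68 times. Their standard errors, with that of Arsa, ran from 1.68 to 2.14 log2 units, against a median of 0.56 over the 40 genes.

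Of the 7 lipid hydrolases and their cofactors, 6 had a log2 fold change below 0. Psap, the precursor of the saposins that present sphingolipids to their enzymes, held 3359, 3288 and 2184 normalized counts in controls and 1159.5, 723 and 1273 in Terf1_flox libraries. Every Terf1_flox library was below the lowest control library (−1.50 ± 0.32, a 2.83-fold lower level, limma adjusted p = 0.121; DESeq2 adjusted p = 0.000751), and it passed in limma when testing was restricted to means of 50 or more (adjusted p = 0.0433). Smpd1, the acid sphingomyelinase, held 970.3, 1301 and 593 in controls and 479.7, 103 and 418 in Terf1_flox libraries. The groups did not overlap, and the low value of Terf1_flox replicate 2 weighed on the fold change, which was −1.72 ± 0.63 with it and −1.02 without it (limma adjusted p = 0.273 with it). Lipa, the acid lipase of cholesteryl esters and triglycerides, held 318, 361 and 238 in controls and 89.2, 174 and 171 in Terf1_flox libraries, with no overlap (−1.12 ± 0.52, limma adjusted p = 0.381). Ppt1, a thioesterase that removes palmitate from proteins, was at −0.76 ± 0.47. Asah1, the acid ceramidase, was at −0.09 ± 0.44 (95% interval −1.09 to 0.91), Gm2a, the ganglioside activator, at −0.18 ± 0.56, and Galc, the galactosylceramidase, at 0.73 ± 0.53.

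The peptidases and the cholesterol transfer proteins were all below 0. Lgmn encodes legumain, an asparaginyl endopeptidase, and held 2987, 1758 and 3570 normalized counts in controls and 1195, 1156 and 797 in Terf1_flox libraries. The lowest control library stood clear of the highest Terf1_flox library (−1.36 ± 0.33, limma adjusted p = 0.148; DESeq2 adjusted p = 0.00299). Tpp1, the tripeptidyl peptidase, held 913 to 1515 in controls and 402 to 1088 in Terf1_flox libraries, with overlap (−0.86 ± 0.42). Npc2, the soluble cholesterol carrier, held 2469, 1024 and 2637 in controls and 563, 633 and 1565 in Terf1_flox libraries, and Terf1_flox replicate 3 lay inside the control range (−1.19 ± 0.50, limma adjusted p = 0.335). Its membrane partner Npc1 was at −0.29 ± 0.75. Grn, which encodes progranulin, a lysosomal regulator, held 602 to 1113 in controls and 128 to 652 in Terf1_flox libraries, with overlap (−1.32 ± 0.62).

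Of the 6 genes of the lysosomal membrane, 5 had a log2 fold change below 0, among them the gene with the smallest p of the 40. Glmp, a glycosylated membrane protein, held 2001, 1943 and 2882 normalized counts in controls and 445, 352 and 423 in Terf1_flox libraries. The 2 groups were far apart relative to their spread, with a 5.52-fold lower level in Terf1_flox libraries (log2 fold change −2.46 ± 0.31, limma adjusted p = 0.0742; DESeq2 adjusted p = 1.89e-11). Lamp1, a heavily glycosylated protein that lines the membrane and whose promoter held 4 E-box cores, held 4003, 2134 and 5465 in controls and 1235, 1839 and 1364 in Terf1_flox libraries. All Terf1_flox libraries were below control replicate 2, the lowest control library (−1.30 ± 0.36, limma adjusted p = 0.189; DESeq2 adjusted p = 0.00535). Lamp2, its paralogue with roles in autophagy, held 5797, 4428 and 5946 in controls and 5154, 7597 and 6397 in Terf1_flox libraries, which overlapped (0.24 ± 0.22, 95% interval −0.26 to 0.74).

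The ratio of Lamp1 to Lamp2 within a library is untouched by a scaling factor per library, but not by a correction for transcript GC content, which is 51.6% for Lamp1 and 41.6% for Lamp2. This ratio of normalized counts, chosen after the values were seen and so given without a test, was 0.690, 0.482 and 0.919 in controls and 0.240, 0.242 and 0.213 in Terf1_flox libraries. Its values were lower in every Terf1_flox library, with a log2 difference of −1.54; corrected for GC content and length, Lamp1 was at −0.80 and Lamp2 at 0.18, which are closer to each other. Per kilobase of the longest annotated coding transcript, Lamp1 averaged 1735 normalized counts in controls and 664 in Terf1_flox libraries, and Lamp2 averaged 1496 and 1771. On that scale the tetraspanin Cd63 was the most abundant of the 40 genes in both groups, at 20851 and 14811.

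Cd63 itself held 23707, 19664 and 25999 normalized counts in controls and 13681, 18494 and 17101 in Terf1_flox libraries. The groups did not overlap, although control replicate 2 and Terf1_flox replicate 2 were close (−0.50 ± 0.17, limma adjusted p = 0.262; DESeq2 adjusted p = 0.214). Mcoln1, the lysosomal cation channel mucolipin, held 124, 124 and 174 in controls and 123, 23.6 and 105 in Terf1_flox libraries. Its groups were separated by about 1 normalized count, and its log2 fold change of −1.03 ± 0.80 became −0.29 without Terf1_flox replicate 2. Scarb2, the membrane receptor of β-glucocerebrosidase, was at −0.24 ± 0.99.

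Of the 3 sorting receptors, 1 was separated between the groups. M6pr, the cation-dependent mannose 6-phosphate receptor, held 1399.6, 2185 and 2572 normalized counts in controls and 914, 893 and 592 in Terf1_flox libraries. Each Terf1_flox library was below each control library (−1.34 ± 0.34, limma adjusted p = 0.15; DESeq2 adjusted p = 0.00571). Igf2r, the cation-independent receptor, held 275, 407 and 138 in controls and 309, 303 and 162 in Terf1_flox libraries, with full overlap (−0.01 ± 0.57, 95% interval −1.30 to 1.28); its sign depended on the scaling and was above 0 with equal upper quartiles (0.11) and with quantile normalization (0.12). Sort1, which encodes the receptor sortilin, was at −0.56 ± 0.53.

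The regulators were low and varied widely between libraries. Tfeb held 65.1, 81.0 and 42.6 normalized counts in controls and 26.1, 87.2 and 13.2 in Terf1_flox libraries, so that both the highest and the lowest value were in the Terf1_flox group (−0.93 ± 0.97, limma adjusted p = 0.715). Tfe3 held 3.52, 103 and 27.6 in controls and 0, 0 and 36.4 in Terf1_flox libraries, which also overlapped (−2.83 ± 1.88, limma adjusted p = 0.539). Single libraries weighed on both: Tfe3 moved to −1.77 when control replicate 2 was left out and to −4.57 when Terf1_flox replicate 3 was, and Tfeb moved to −1.66 or −0.34 on omitting Terf1_flox replicate 2 or 3. Neither regulator was separated from the spread between libraries, and RNA levels do not show where the proteins are in the cell.

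**Figure D4:**
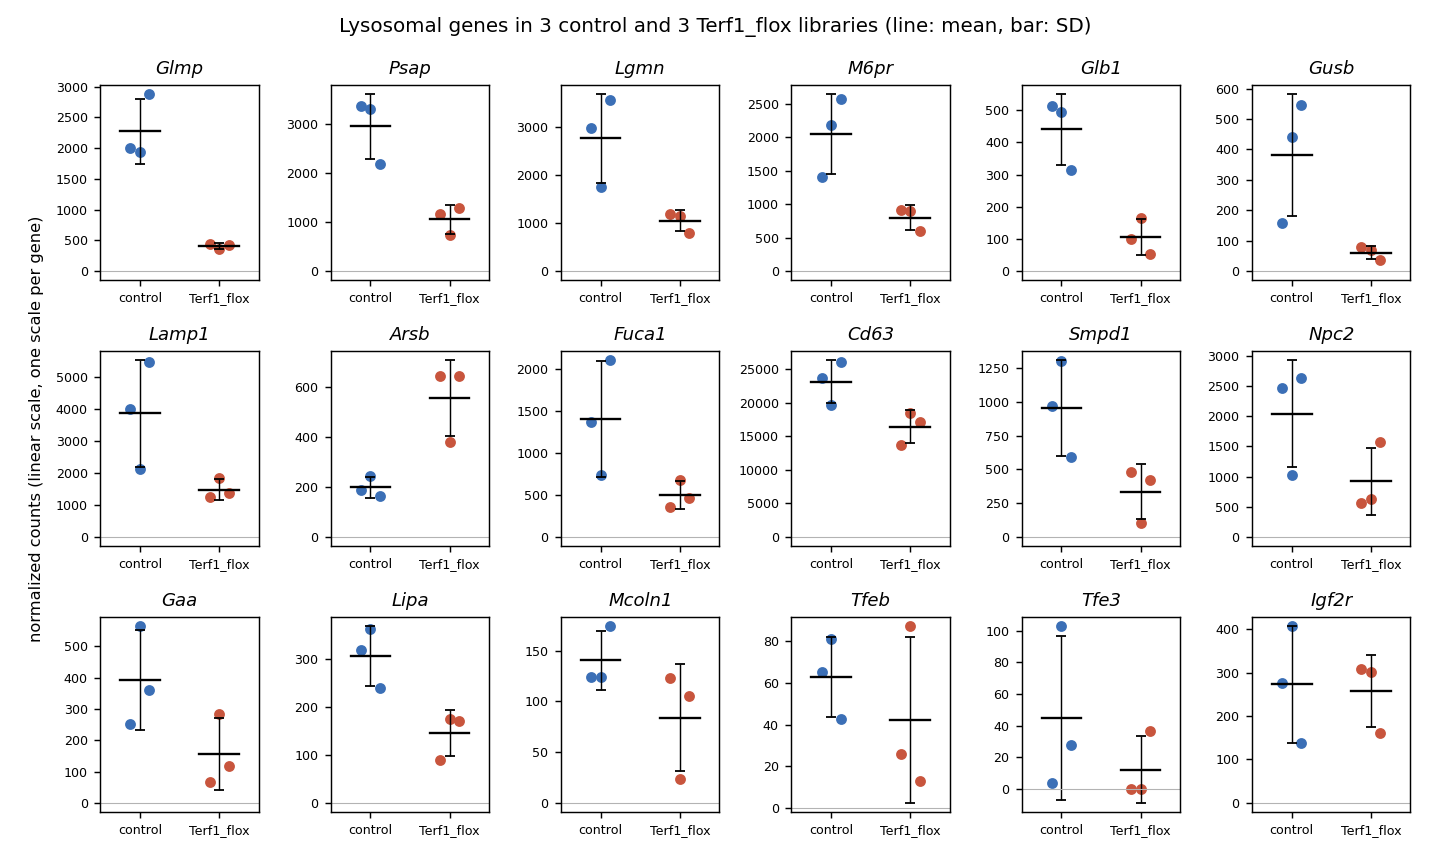
Normalized counts (vertical axes, linear, one scale per gene) of 18 lysosomal genes in the 3 control (blue) and 3 Terf1_flox (red) libraries; points are libraries, the thick line is the mean and the bar is the SD. Glmp shows the widest gap relative to spread (1943 to 2882 against 352 to 445), Arsb is higher in all Terf1_flox libraries, and Tfeb, Tfe3 and Igf2r overlap.

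Genes of the wider lysosomal system were read from 7 lists of their own, in none of which a gene passed over all genes in limma with the deposited scaling. Their counts at an unadjusted p below 0.05 stand beside 8.43% lower and 5.7% higher over all tested genes, and the genes named are among the 4 of smallest p in their list. All 11 measured cathepsins had a log2 fold change below 0 (median −1.30) and 5 had an unadjusted p below 0.05; cathepsin A (Ctsa), which also stabilises the enzymes of Glb1 and Neu1, was at −2.57 ± 0.33. Of 18 other lysosomal enzymes, 16 were below 0 (median −0.995), 5 of them at an unadjusted p below 0.05 and none higher at that limit. Among these were Plbd2 (−2.00 ± 0.60), Hgsnat (−0.999 ± 0.38), an acetyltransferase of heparan sulfate breakdown, and Sumf1 (−1.31 ± 0.52), the enzyme that activates sulfatases. Of 16 other lysosomal membrane genes, 14 were below 0 (median −0.52), 3 of them at an unadjusted p below 0.05, with Laptm4a at −1.10 ± 0.25. Of 13 genes of the mannose 6-phosphate tagging and adaptor machinery, 10 were below 0 (median −0.45), 3 of them at an unadjusted p below 0.05, and the Golgi adaptor Gga2, which binds the tails of the sorting receptors, was at −1.52 ± 0.39. The 17 ubiquitous V-ATPase genes were split, with 9 below 0 and 8 above (median −0.21) and 6 lower and 1 higher at an unadjusted p below 0.05, from the accessory subunit Atp6ap1 (−1.80 ± 0.36) to the membrane subunit Atp6v0e (0.93 ± 0.24). The list of 16 genes around TFEB and TFE3, mostly their regulators but also the family members Mitf and Tfec, was also split. Of these genes 9 were below 0 (median −0.13), and 2 were lower and 1 higher at an unadjusted p below 0.05, close to the shares over all tested genes. Fnip1, a partner of folliculin, was at 1.68 ± 0.36. The Rag GTPase Rraga was at −3.87 ± 1.29 in limma and at −2.57 in DESeq2 (adjusted p = 0.0982). Its Terf1_flox libraries held 42.4, 2.05 and 161 normalized counts. Of 16 autophagy genes 11 were below 0 (median −0.81), 4 were lower and 1 higher at an unadjusted p below 0.05, and the related Gabarapl1 (−1.69 ± 0.26) and Gabarap (0.60 ± 0.20) had opposite signs. DESeq2 called 2 cathepsins, 2 V-ATPase genes and 1 gene each of the other enzymes, the other membrane genes, the tagging and adaptor genes and the autophagy genes as lower, and Atp6v0e and Fnip1 as higher, against 3.0% lower and 2.21% higher over all tested genes. Some genes of these lists also passed in limma when testing was restricted to means of 50 or more. Of the 4 genes of smallest p in each list, these were Ctsa (limma adjusted p = 0.0182), cathepsin B (Ctsb, 0.0238), Gabarapl1 (0.0238) and Atp6ap1 (0.0343). With equal library totals, Ctsa (limma adjusted p = 0.029), Ctsb (0.0404) and Gabarapl1 (0.0497) passed too, and with quantile normalization Ctsa did (0.048).

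Fold changes in this comparison varied with transcript GC content, and the lysosomal genes were not evenly spread over it. Of the 40 genes, 20 lay in the 2 highest of 5 equal GC bins of all tested genes, where the median over all tested genes was −0.33 and −0.49; the lysosomal genes of these bins had medians of −1.30 and −1.51. The 20 genes of higher GC content (51.6% to 61.4%) had a median of −1.37 with 18 below 0, and the 20 of lower GC content (41.6% to 51.3%) had a median of −0.21 with 14 below 0. After correction of each library for transcript GC content and length, the median was −0.85 for the 20 of higher and −0.15 for the 20 of lower GC content. Of all 40 genes, 28 were then below 0 and the median was −0.50, against 0.08 over all tested genes. At an unadjusted limma p below 0.05, 6 were then lower and 1 higher, against 5.22% and 6.67% of all tested genes. The 6 lower genes were Glmp, Psap, M6pr, Gusb, Lgmn and Glb1, with corrected log2 fold changes of −1.95, −0.88, −1.10, −1.97, −0.88 and −1.57, and Arsb was at 1.68. Lamp1 was then at −0.80, Fuca1 at −0.84 and Neu1 at 0.21. The corrected medians of the other lists also lay higher than the uncorrected ones: the value was −0.66 for the cathepsins, with 11 of 11 below 0, −0.54 for the other enzymes (12 of 18), −0.35 for the other membrane genes (14 of 16) and −0.33 for the autophagy genes (9 of 16). The tagging and adaptor genes were then at −0.42 (9 of 13), the V-ATPase genes at −0.13 (10 of 17), and the list around TFEB and TFE3 turned from −0.13 to 0.28 (7 of 16). The median of the 10 genes with the E-box core was −0.87 after this correction, with 8 below 0, and that of the 24 without was −0.44.

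**Figure D5:**
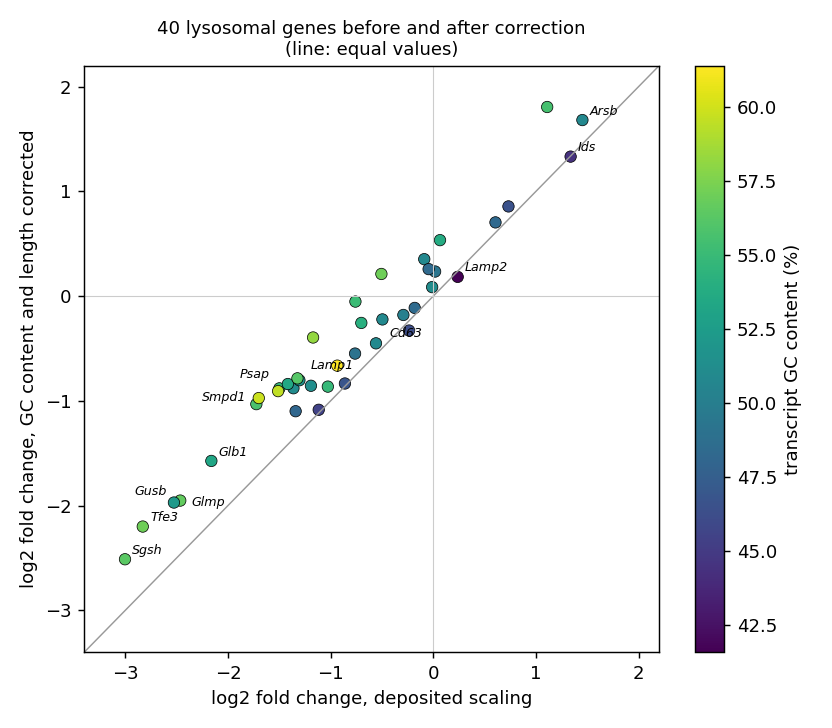
Log2 fold change with the deposited scaling (horizontal axis) against that after correction for transcript GC content and length (vertical axis) for the 40 genes, coloured by GC content; the line marks equal values. Most points with a negative value lie above the line, closer to 0, while Glmp (−1.95), Gusb (−1.97) and Glb1 (−1.57) stay among the lowest.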

How the data were processed

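RNA of sorted kidney epithelial cells was measured in 6 libraries, 3 control and 3 Terf1_flox. The authors deposited normalized counts for 16095 genes, a signal in reads divided by one factor per library and not by gene length; DESeq2 and build GRCm39 are named in the submitters' processing notes, while an aligner, a counter, an annotation or a gene filter is not given in the sources used. All values (100.0%) were whole multiples of a fixed step in each library (tolerance 0.01 reads), and these reads were recovered by division; edgeR then called 0 genes and DESeq2 772. Statements on depth cover counting error only.

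Terf1_flox was compared with control by limma 3.58.1 (R 4.3.3, mean-variance trend) on log2(normalized count + 1) for genes with a mean of at least 10, two-sided, Benjamini-Hochberg adjusted over all 14822 genes; ± marks the standard error of a log2 fold change. For low genes this scale can understate a fold change, and where libraries at or near 0 enter a mean of logs it can exceed the ratio of means (Sgsh −3.003, against −1.72 in DESeq2). Alternatives were other scalings, pseudocounts (0.5, 5) and filters (none, 50), array weights, robust fitting, Xist as a covariate, a replicate block, leaving out each library, edgeR 4.0.16, DESeq2 1.42.0, and a spline correction (4 degrees of freedom each) of each library for transcript GC content and length, medians over protein-coding transcripts of GENCODE release M21. The tests were tried on simulated reads. Genes with full values were those with a mean of at least 50 whose groups did not overlap or whose unadjusted p was below 0.05 (at most 16), and Tfeb, Tfe3, M6pr and Igf2r; up to 4 genes with the smallest p were eligible from each other list. The members, lists and tests were chosen with earlier results of these data known. Promoter windows are RefSeq's on GRCm38.p6, and no coordinates were carried between builds. For 32 of the 34 matched genes, at least 1 window ran in the sense of a GENCODE transcript. Figures used matplotlib 3.10.9.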

Additional observations from a re-analysis of the deposited data

How the results depend on the processing

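Limma called 0 genes with the deposited scaling, 45 with equal library totals, 8 with quantile normalization and 132 with a mean of at least 50, and DESeq2 called 772; leaving out any 1 library gave 0. The count of lower lysosomal genes at an unadjusted p below 0.05 was 12 and ran from 8 to 12 without 1 library, and it was 6 with GC content and length corrected. The count of higher ones was 1, was 2 with DESeq2, and ran from 1 to 2 without 1 library. The median log2 fold change of −0.81 ran from −0.91 to −0.80 without 1 library; it was −0.99 with equal totals, −0.69 with equal upper quartiles and −0.50 with GC content and length corrected. Those scalings also moved the median of all tested genes, from −0.08 to −0.24 with equal totals, 0.04 with equal upper quartiles and 0.08 with the correction. Terf1 passed over all genes with equal totals (−4.17, limma adjusted p = 0.0497), with a mean of at least 50 (−3.99, limma adjusted p = 0.0285) and in DESeq2 (−3.89), and ran from −4.42 to −3.77 without 1 library. Glmp passed in limma with equal totals (adjusted p = 0.029), quantile normalization (0.0381) and a mean of at least 50 (0.0182), and Psap with the last (0.0433). Of the 18 genes with full values, Igf2r alone changed sign, to 0.11 with equal upper quartiles, 0.12 with quantile normalization and 0.086 with the correction, and between −0.43 and 0.34 without 1 library (0.06, 0.34 and 0.29 without control replicates 1 and 2 and Terf1_flox replicate 3). The cause of these shifts was not tested. On leaving out 1 library, Tfeb ran from −1.66 (without Terf1_flox replicate 2) to −0.34 (without replicate 3). Tfe3 then ran from −4.57 (without Terf1_flox replicate 3) to −1.77 (without control replicate 2). Tfe3 also moved with the pseudocount, to −3.44 with 0.5 and to −1.62 with 5. With the replicate block, limma called 0 genes, with 13 lower and 1 higher lysosomal genes at an unadjusted p below 0.05. Same-numbered libraries did not deviate together over all tested genes (correlations of −0.049, 0.00013 and −0.0069). Differently numbered ones ran from −0.028 to 0.039. The correlations thus gave no sign that the numbers pair libraries, but they cannot exclude a pairing that touched few genes. Tfe3, Sgsh, Galns, Arsa and Gla had fewer than 10 reads in at least 1 library but up to 108, 84, 169, 287 and 77 in another of similar total, so the spread between libraries limits them. DESeq2 put Galns at −0.61 and Gla at 0.64, opposite to limma.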
